A study of Mus musculus with 6 samples.

Results

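The cells described here were cone bipolar cells of the mouse retina, 621 of the 38569 barcodes that passed the cell filters. They were selected on their own RNA. A barcode was taken as a member when it held at least 1 unique molecular identifier (UMI, one captured RNA molecule) of at least 3 of 6 genes, namely Grik1, Otor, Nnat, Slitrk6, Fezf2 and Lrrtm3. It also had to hold fewer than 3 of 5 other bipolar genes (Slit2, Irx6, Zfhx4, Cdh8 and Cntnap5a) and no UMI of Sebox, Tfap2b or Arr3, which mark rod bipolar, amacrine and cone cells. The levels of these 14 genes are therefore a description and carry no test. Among the 5, Cntnap5a was still detected in 215 of the members.

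Retinas were taken from mice with oxygen-induced retinopathy (OIR) and from controls, dissociated whole and profiled by droplet single-cell RNA sequencing that reads the 3' ends of transcripts. OIR pups were kept in 75% oxygen from postnatal day (P) 7 to P12, returned to normal air for 5 days and killed at P17, and control pups were raised in normal air to P17. Each group had 3 libraries, each from the retinas of 2 mice, with no genetic alteration in the labels of either group, and the strain is not given in the sources used here. Every test below measures the spread between these pools. The labels name the tissue as retinal endothelial cells and the mice as adult, while the age label is P17 and the protocol describes dissociated retina. Among the barcodes kept, 26192 carried rod genes (at least 5 of 8) with fewer than 2 bipolar genes.

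Bipolar cells carry the signal of photoreceptors to ganglion and amacrine cells. OFF cone bipolar cells respond to glutamate from cones through ionotropic receptors of the kainate and AMPA classes and extend their axons to the outer sublamina of the inner plexiform layer, while ON bipolar cells use the metabotropic receptor Grm6 and the transcription factor Isl1. In OIR, high oxygen halts and prunes the retinal vessels, and on return to normal air the inner retina, where bipolar cell bodies lie, becomes hypoxic.

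Libraries stood apart in several respects. Members were spread unevenly, with 145, 28 and 43 in OIR libraries 1, 2 and 3 and 336, 30 and 39 in control libraries 1, 2 and 3, so that control 1 held most of them. The first library of each group was also the deeper one. The libraries held 37872383, 24615436 and 25061712 UMIs (OIR) and 42606878, 19702233 and 15788524 UMIs (control), and the summed members held 815789, 220749 and 225088 against 1800928, 145450 and 166167 UMIs. These first libraries had the higher mitochondrial share per member, with medians of 7.51, 3.44 and 2.67% in OIR and 8.75, 4.55 and 3.00% in controls. The sex of the pups differed between pools by their RNA. Controls 2 and 3 carried Xist and no UMI of the Y-linked Ddx3y in the members, while the other 4 libraries carried Ddx3y at 65.0 to 109 CPM (the summed UMIs of a gene in the members, scaled to a common total in each library). Of the barcodes kept, 161 sequences occurred in more than 1 library. None was a member in both libraries, and 4 were a member in 1 of them.

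The members carried the RNA of bipolar cells in genes that had no part in the selection. Lhx4, a LIM homeodomain factor, was detected in 88.1% of them, the membrane protein Gsg1 in 93.1% and the calcium-binding protein Cabp5 in 87.8%. After each barcode had been thinned to 1000 UMIs to equalise depth, which kept 611 members, these shares were 46.2% for Lhx4, 85.6% for Gsg1 and 58.4% for Cabp5. In rod barcodes, which should lack these genes and were limited by their choice to fewer than 2 bipolar genes, the thinned shares were 0.194% for Lhx4, 0.244% for Gsg1 and 0.341% for Cabp5. The median depth before thinning was 5225 UMIs in members and 1879 in rod barcodes.

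The ON genes Grm6 and Isl1 were uncommon. Grm6 was detected in 13.5% of members and Isl1 in 13.0%, or 4.26 and 4.91% after thinning, against 59.0 and 81.0% after thinning in 2106 barcodes chosen by genes of rod bipolar cells. These Prkca-rule barcodes held at least 3 of 5 rod bipolar genes, among them Prkca, Sebox, Car8 and Vstm2b, fewer than 3 of the 6 member genes and of the 5 Slit2-rule genes, and no UMI of Tfap2b or Arr3. Other ON genes were present in the members, where the 9 listed ON genes together stood at 1545 to 3248 CPM, led by Gnb3 (mean 793 CPM). In Prkca-rule barcodes they stood at 21477 to 30012 CPM, led by Pcp2. A second group of 439 Slit2-rule barcodes held at least 3 of Slit2, Irx6, Zfhx4, Cdh8 and Cntnap5a, fewer than 3 of the 6 member genes and no UMI of Sebox, Tfap2b or Arr3. OFF genes marking other types were scarce in the members. Vsx1, a homeodomain factor, was detected in 1.77%, the kainate receptor auxiliary subunit Neto1 in 1.77%, the neurokinin receptor Tacr3 in 1.29% and the receptor tyrosine kinase Erbb4 in 0.805%. In Slit2-rule barcodes Vsx1 was detected in 31.2% after thinning, against 0.491% of members.

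**Figure D1:**
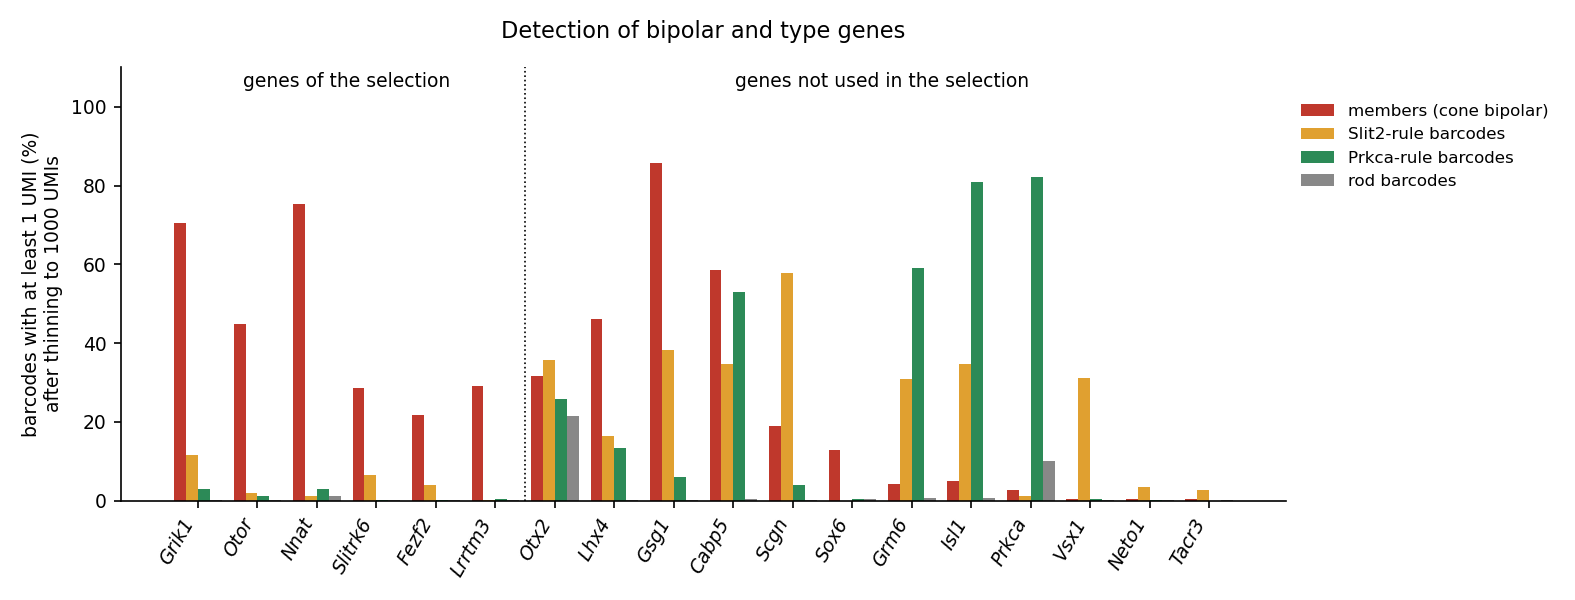
Share of barcodes with at least 1 UMI of each gene (vertical axis, %) after thinning to 1000 UMIs, in members, Slit2-rule, Prkca-rule and rod barcodes; genes left of the dotted line chose the members. Gsg1 reached 85.6% of members and 6.05% of Prkca-rule barcodes, and Grm6 4.26 and 59.0%.

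Rod RNA was present in the members, where 14 rod genes together stood at 3728 to 12178 CPM, against 53075 to 90657 CPM in rod barcodes. The endothelial genes that the tissue label would call for were near 0 in the members, at 20.6 to 80.9 CPM for 6 genes together.

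Among the 6 genes used for the selection, Grik1, a kainate receptor subunit, was detected in 91.6% of members, the secreted protein Otor in 81.5%, the proteolipid Nnat in 92.3%, the synaptic adhesion protein Slitrk6 in 71.2%, the zinc finger factor Fezf2 in 60.5% and the postsynaptic adhesion protein Lrrtm3 in 81.3%. By number of the 6 genes, 123 members held 3, 99 held 4, 188 held 5 and 211 held all 6. The 123 members just inside the limit lay between the members with 4 to 6 genes and the 431 barcodes just outside it, which held 2 of the 6 genes. Grm6 was detected in 39.0% just inside, 57.3% just outside and 7.23% at 4 to 6 genes. Gsg1 was detected in 70.7, 43.4 and 98.6% of the same barcodes.

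In the members' summed RNA, Fezf2 stood at 299, 299 and 355 CPM in OIR and 197, 227 and 241 in controls, without overlap. Slitrk6 stood at 302, 294 and 378 against 319, 722 and 529.6, Grik1 at 1282, 1173 and 1031 against 1389, 1581 and 1282, Otor at 863, 707 and 982 against 737, 1155 and 1089, and Lrrtm3 at 355, 289.9 and 319.9 against 371, 358 and 325. Nnat stood at 2089, 1726 and 2968 CPM in OIR and 2019, 2647 and 2166 in controls. The ranges of the genes other than Fezf2 overlapped between the groups.

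The members were not uniform. Fezf2 was detected in 63.3% of the 569 members with Grik1 and in 30.8% of the 52 without it, and Slitrk6 in 74.3 and 36.5%. Pcdh17, a protocadherin, went the other way, with 11.6% of members with Grik1 and 63.5% of those without. Grik1, Fezf2 and Slitrk6 belong to the selection, which demands 3 of 6 genes and so links them, while Pcdh17 had no part in it.

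Clustering of the members gave 8 sub-clusters, left unnamed. Sub-clusters 1 (161 members) and 2 (255) held Grik1 in 100 and 98.4% of their cells and Grm6 in 9.32 and 3.92%. Sub-cluster 1 was led by Xist, the fatty acid-binding protein gene Fabp7, Ntng1, which encodes a netrin-related membrane protein, and Cox4i2, a mitochondrial subunit. Sub-cluster 2 was led by the dopamine receptor gene Drd4, the noncoding RNA Mir670hg, the receptor gene Lgr5 and the cone genes Cngb3 and Gnat2. Sub-cluster 4 (77 members) was led by Zfhx3, Cpne9, Fam19a4 and Cabp2, with Scgn in 94.8% and Nnat in 54.5%. Grm6 and Isl1 were each detected in 93.8% of the 16 members of sub-cluster 5, led by Kcng4, Neurod2 and the serotonin receptor gene Htr3a, and in 90.6 and 96.9% of the 32 members of sub-cluster 6, led by Adarb2, Pcp2 and Cntn5. Grik1 was in 93.8% of sub-cluster 5 and 3.13% of sub-cluster 6. Both sub-clusters thus carried these ON genes, while every other sub-cluster held Grm6 in at most 15.8% and Isl1 in at most 10.2% of members. No OFF pattern is read from the other members, since the OFF genes Grik1 and Fezf2 belong to the selection.

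The remaining sub-clusters carried RNA of other cells or little RNA. Sub-cluster 3 (49 members) was led by the rod genes Rp1, Samd11, Slc24a1 and Nr2e3, and its rod list summed to 35886 CPM. Sub-cluster 7 (19 members, median 11831 UMIs) was led by Col9a1 and the Mueller glia genes Apoe, Slc1a3, Dkk3 and Car14. Sub-cluster 8 (12 members) had a median of 1404 UMIs. Library and sub-cluster went together. Control 1 gave 218 of the 255 members of sub-cluster 2 and 8 of the 161 of sub-cluster 1, while OIR 1 gave 25 and 82. Sub-cluster 1 took 20 of 30 members in control 2 and 22 of 39 in control 3. Whether sub-clusters 1 and 2 are cell states or libraries cannot be told apart.

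Members made up 2.39% of the kept barcodes in OIR 1 (95% exact Clopper-Pearson interval 2.02 to 2.81), 0.509% in OIR 2 (0.338 to 0.735) and 0.576% in OIR 3 (0.417 to 0.775). In controls 1, 2 and 3 they made up 4.70% (4.22 to 5.22), 0.559% (0.377 to 0.796) and 0.555% (0.395 to 0.758). The means were 1.16% ± 1.07 (SD, n = 3) in OIR and 1.94% ± 2.39 in controls, a difference of -0.779 percentage points (two-sided exact permutation test p = 0.7, where 3 against 3 cannot give less than 0.1). The first library of each group was several times above the others, and the groups overlapped. Without control 1 the sign turned, to 0.603 percentage points (exact permutation p = 0.8).

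Among bipolar barcodes, which held at least 3 of 10 bipolar genes, members were 7.75, 5.80 and 8.01% of 1730, 431 and 487 barcodes in OIR. In controls they were 12.1, 7.58 and 10.4% of 2706, 356 and 347. The means were 7.18% ± 1.21 in OIR and 10.0% ± 2.27 in controls, -2.83 percentage points (exact permutation p = 0.3, n = 3 per group), and -1.79 without control 1. Each OIR library stood below the control of the same number, which this unpaired test does not use. After thinning to 1000 UMIs the shares were 5.81, 3.79 and 6.85% in OIR and 8.71, 6.98 and 7.33% in controls. These groups did not overlap, with -2.19 percentage points and an exact permutation p of 0.1, the smallest possible with n = 3. All intervals cover counting error only. A member is counted when genes of the selection are detected, so fewer cells and less RNA of those genes per cell cannot be told apart.

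**Figure D2:**
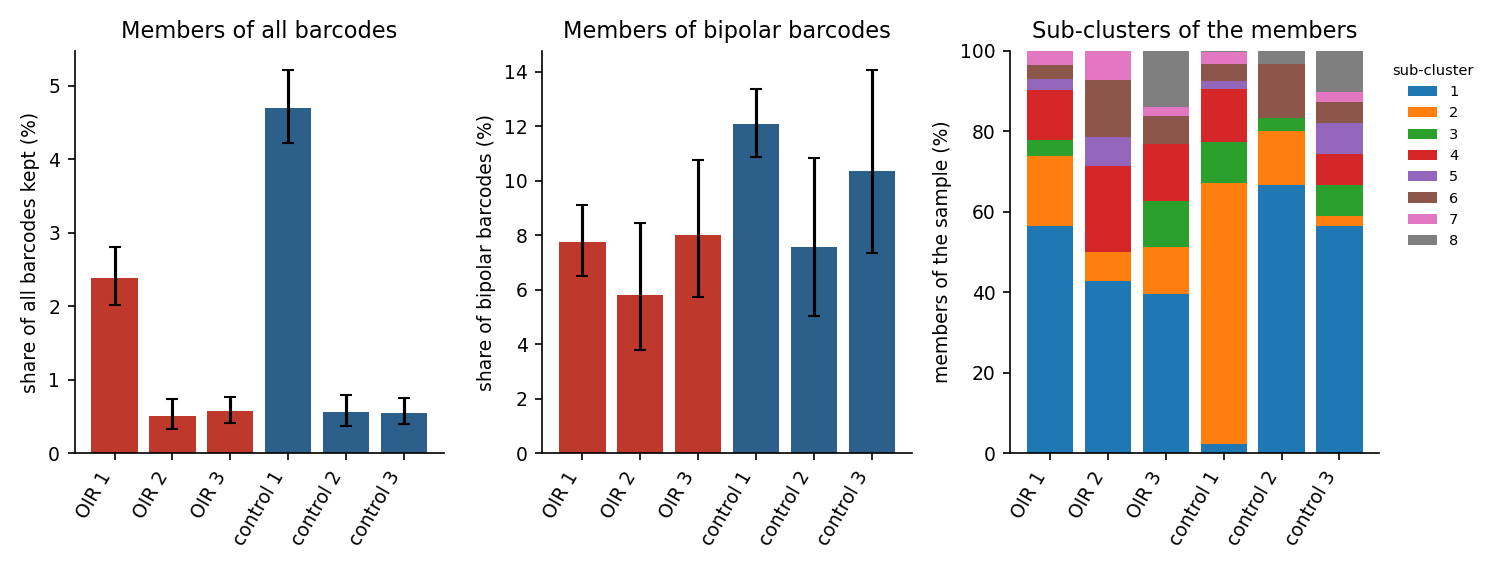
Members as a share of all kept barcodes (left) and of bipolar barcodes (middle), bars with 95% exact intervals, and the make-up of each library's members by sub-cluster (right, %). Control 1 reached 4.70% of kept barcodes, and sub-cluster 2 held 218 of its 336 members.

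Between OIR and control members, 3 of 4265 genes tested were called (0.0703%), all higher in OIR. These were Bnip3, Hmgb2 and Cox4i2. Called means that the adjusted p of edgeR's quasi-likelihood test on summed UMIs was under 0.05 and the log2 fold change at least 0.25 in size. No gene was called lower. At an unadjusted p under 0.05, 149 genes were higher (3.49%) and 139 lower (3.26%), and the CPM ranges did not overlap for 287 higher (6.73%) and 249 lower (5.84%). DESeq2 called 5 higher and 1 lower. Leaving out OIR 1, 2 or 3 left 1, 2 and 5 genes higher and none lower, leaving out control 1 gave 6 higher and 5 lower, and without control 2 or without control 3 none was called. Without the 53 members of highest doublet score, 42 of them in control 1, 20 were called higher and 2 lower, Bnip3, Hmgb2 and Cox4i2 among the higher. A term for sex was fitted too. Controls 2 and 3 alone differed in sex by RNA, so that fit sets the OIR libraries against control 1 only. Its counts are therefore not given. With the replicate number as a block, 21 were called higher and 15 lower. Below, genes called only with that block are given with its value too, and "called" or "passed" without mention of the block means the fit without it. In bulk sums such as these, fewer expressing cells and less RNA per cell cannot be told apart.

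Bnip3 (chr7:138890836-138909519, GRCm38), a hypoxia-induced receptor that directs mitochondria to autophagy, stood at 435, 462 and 355 CPM in OIR and 164, 151 and 217 in controls. Every OIR library was above every control, with means of 418 ± 55.5 and 177 ± 34.7 CPM (SD, n = 3). The log2 fold change was 1.24 (SE 0.20, edgeR adjusted p = 0.0329). Bnip3 was detected in 77.2, 71.4 and 69.8% of OIR members and 53.0, 43.3 and 53.8% of control members, but in 5.13 to 15.4% of rod barcodes. Leaving out 1 library gave 1.16 to 1.35, with an adjusted p of 0.0197 without control 1 and 0.196 without control 2.

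Hmgb2 (chr8:57511907-57515999), a chromatin protein that bends DNA, stood at 152, 136 and 218 CPM in OIR and 62.2, 41.3 and 36.1 in controls, again without overlap (means 169 ± 43.3 and 46.5 ± 13.8). The log2 fold change was 1.59 (SE 0.27, edgeR adjusted p = 0.0329). Without control 1 it was 2.11 (adjusted p = 0.00634), and without control 2 it was 1.52 (adjusted p = 0.196). Hmgb2 RNA was also abundant in rod barcodes, at 303, 319.8 and 408 CPM in OIR and 166, 163 and 164 in controls. The members' rod list stood at 11.9, 5.2 and 12.9% of its level in rod barcodes (OIR) and 22.9, 7.85 and 8.25% (control). Rod RNA at that level would give 36, 16.6 and 52.7 CPM of Hmgb2 in OIR members and 38.1, 12.8 and 13.5 in control members. The part of rod RNA in the Hmgb2 result was not tested.

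Cox4i2 (chr2:152754173-152765037), the isoform of a cytochrome c oxidase subunit induced by low oxygen, stood at 342, 154 and 195 CPM in OIR and 68.3, 82.5 and 60.2 in controls. No OIR library reached down to the controls, and OIR 1 was the highest (means 230 ± 98.8 and 70.3 ± 11.3). The log2 fold change was 1.78 (SE 0.31, edgeR adjusted p = 0.0497). This call was lost without control 1 (1.79, adjusted p = 0.121), without OIR 1 (1.26, adjusted p = 0.0785), without control 2 (adjusted p = 0.196) and without control 3 (adjusted p = 0.144). Cox4i2 was detected in 60, 46.4 and 34.9% of OIR members and 16.7, 23.3 and 15.4% of control members. In rod barcodes it was detected in 14.2, 5.91 and 5.92% and in 13.6, 3.79 and 2.11%.

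In members of sub-clusters 1, 2 and 4 alone, chosen after the sub-clusters were seen, Bnip3 (1.30, edgeR adjusted p = 0.00533), Hmgb2 (1.73, adjusted p = 0.00533) and Cox4i2 (2.24, adjusted p = 0.0213) passed the test. They also passed there without control 1.

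The next genes by p with non-overlapping ranges did not pass the test. On the higher side, Slc16a3, a lactate exporter, stood at 158, 163 and 120.0 CPM in OIR and 59.4, 68.8 and 66.2 in controls (log2 fold change 1.22, SE 0.25, edgeR adjusted p = 0.0850, and 1.24, adjusted p = 0.0188, with the block). On the lower side, Mmd, a membrane protein first described in maturing macrophages, stood at 25.7, 9.06 and 13.3 CPM in OIR and 77.7, 75.6 and 60.2 in controls. Its log2 fold change was -1.91 (adjusted p = 0.0708), and -1.90 in edgeR with the block (adjusted p = 0.0133). Leaving out 1 library gave -2.75 (without OIR 1) to -1.72 (without OIR 2), and the value rested on 21, 2 and 3 UMIs in OIR and 140, 11 and 10 in controls.

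The predicted transcript AC149090.1 stood at 39.2, 49.8 and 44.4 CPM in OIR and 88.3, 193 and 265 in controls (-1.88, edgeR adjusted p = 0.138). The noncoding RNA Mir670hg stood at 153, 86.1 and 116 against 322, 179 and 247 (-1.09, adjusted p = 0.187), and 1500009C09Rik at 35.5, 36.2 and 22.2 against 88.3, 75.6 and 54.2 (-1.28, adjusted p = 0.187). Slc6a6, the taurine transporter, stood at 962, 702 and 666 CPM in OIR and 1469, 1299 and 1125 in controls (-0.75, adjusted p = 0.216). With the block, edgeR called AC149090.1 (-1.75, adjusted p = 0.00298), Mir670hg (-1.09, adjusted p = 0.0139) and Slc6a6 (-0.76, adjusted p = 0.0126), but not 1500009C09Rik (-1.27, adjusted p = 0.0532).

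**Figure D3:**
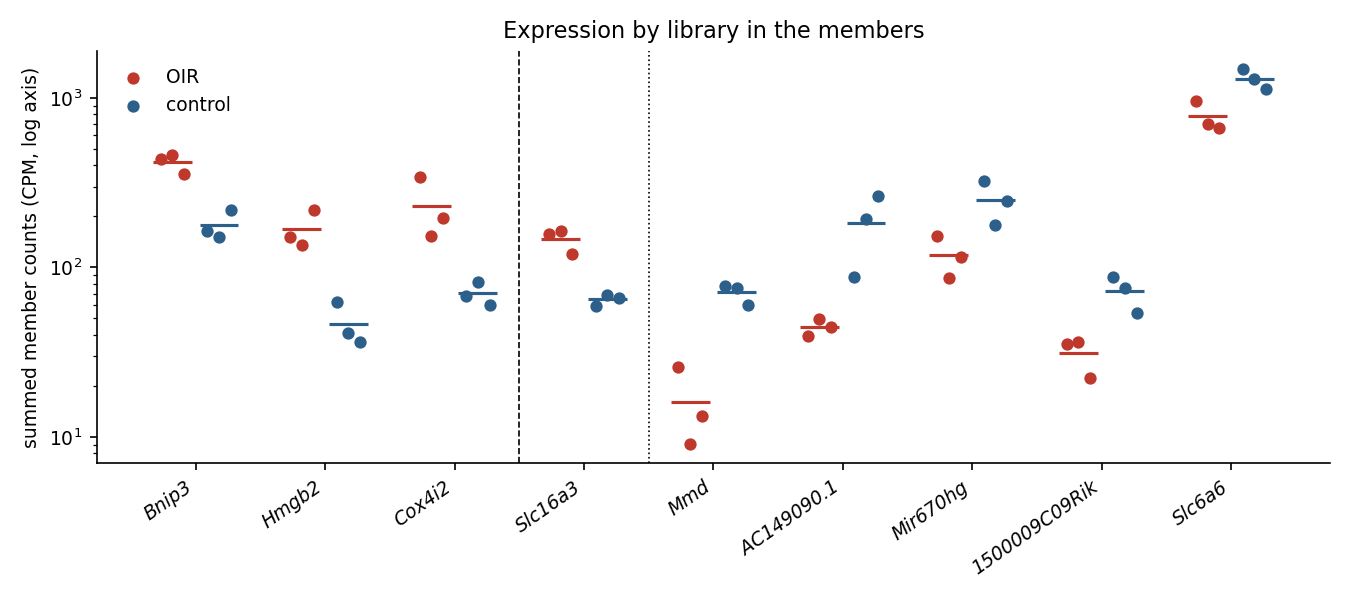
CPM of the summed members (log axis) in each OIR and control library, with group means as lines; the 3 genes left of the dashed line were called, and genes right of the dotted line were lower in OIR without passing the test. Bnip3 stood at 355 to 462 CPM in OIR and 151 to 217 in controls.

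Bnip3 was the only called gene of the hypoxia list, and with the block Egln1 was called as well. Of 27 listed genes 18 were tested, 14 with a log2 fold change above 0 and 4 below. At an unadjusted p under 0.05, 5 were higher and 2 lower, and the median was 0.24 against 0.00 over all genes tested, of which 3.49% were higher and 3.26% lower by the same p. With 1 library left out the median of the list ran from 0.15 to 0.37. Egln1, the oxygen-sensing prolyl hydroxylase that marks HIF for degradation, stood at 321, 208 and 159.9 CPM in OIR and 94.4, 89.4 and 120.4 in controls. All OIR libraries were higher (1.24, SE 0.28, edgeR adjusted p = 0.118, and 0.82 without OIR 1), and Egln1 passed in sub-clusters 1, 2 and 4 alone (1.496, adjusted p = 0.0244) and in all members with the block (1.30, adjusted p = 0.0157). The stress-response gene Ndrg1 stood at 143, 281 and 239.9 against 118, 75.6 and 96.3 CPM (1.00, adjusted p = 0.241). Vegfa, the vascular growth factor, stood at 199.8, 227 and 155 against 122, 193 and 138 CPM (0.42, adjusted p = 0.824), and its groups overlapped. P4ha1, a collagen prolyl hydroxylase, went the other way, with 65.0, 49.8 and 48.9 CPM in OIR and 86.6, 89.4 and 132 in controls (-0.77, adjusted p = 0.488).

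Of 24 genes of glycolysis and lactate transport, 21 were tested and none was called, and with the block Hk2 and Slc16a3 were. Here 16 were above 0 and 5 below, 6 were higher and 1 lower at an unadjusted p under 0.05 (3.49 and 3.26% over all genes), and the median log2 fold change was 0.31. Without OIR 1 this median was 0.05, and with replicates 2 and 3 alone 0.00. Hk2, the inducible hexokinase, stood at 134, 72.5 and 57.8 CPM in OIR and 45.0, 20.6 and 18.1 in controls, with no overlap (1.36, edgeR adjusted p = 0.332, and 1.59, adjusted p = 0.00392, with the block), and the log2 fold change was 0.77 without OIR 1 and 2.34 without control 1. The lactate dehydrogenase gene Ldhb stood at 93.2, 118 and 75.5 against 56.1, 41.3 and 24.1 CPM (0.94, adjusted p = 0.389, and 1.57 without control 1). Over 15 alternative settings the log2 fold change of Ldhb ran from 0.30 to 1.57. Slc16a7, a monocarboxylate importer, was at 190.0, 131 and 204 CPM in OIR and 256, 371 and 271 in controls (-0.73, adjusted p = 0.374).

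**Figure D4:**
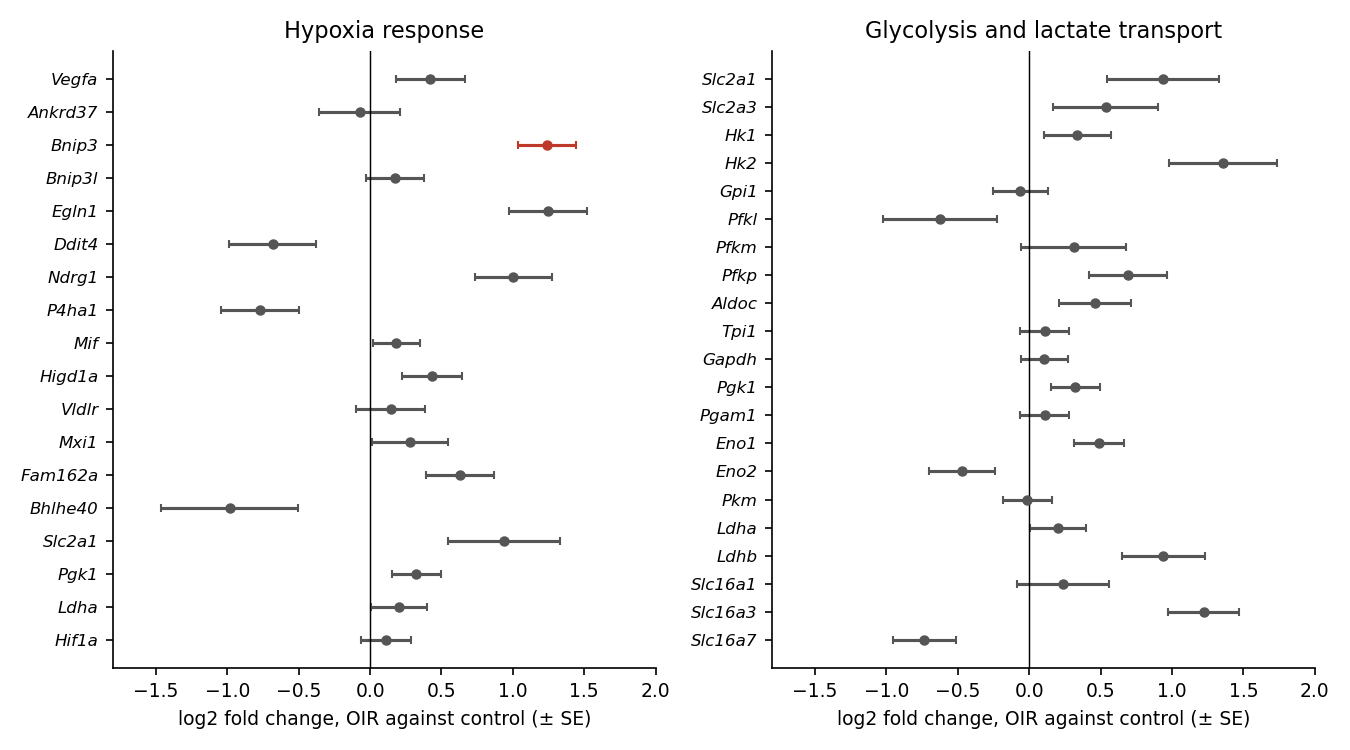
Log2 fold change (OIR against control, bars ± SE) of every tested gene of the hypoxia list and of the glycolysis and lactate transport list in the members; the called gene is drawn in red. Bnip3 stood at 1.24 and Hk2 at 1.36, while Slc16a7 stood at -0.73.

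HIF binds DNA around the core letters ACGTG. These letters, on either strand (CACGT is the reverse complement, and CACGTG holds both), were searched in RefSeq promoters (250 bases before to 50 after each start, assembly GRCm38.p6), where 6447 of 32851 promoters held them (19.6%). Of the 36 tested hypoxia and glycolysis genes, 31 had a promoter entry and 23 held a match in at least 1, in 25 of 44 promoters (56.8%). Every tested gene of these lists was counted, whatever its change in OIR. Since the hypoxia list was chosen for that response, the share describes the lists and is no result about OIR. The stretches below are a choice among the genes with matches. They surround the matches of Bnip3, which was called, and of Slc16a3 and Egln1, whose OIR libraries all stood above the controls. Those of Ldha are shown because its OIR effect is compared between bipolar groups further on. Other genes with matches are named after the stretches. Capitals mark the match, and each runs 5′ to 3′ on the gene's strand.
Bnip3 (chr7:138909589-138909634, minus strand): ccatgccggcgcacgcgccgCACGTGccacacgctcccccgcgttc
Slc16a3 (chr11:120949020-120949066, plus strand): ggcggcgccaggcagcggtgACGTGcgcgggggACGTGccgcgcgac
Egln1 (chr8:124949298-124949342, minus strand): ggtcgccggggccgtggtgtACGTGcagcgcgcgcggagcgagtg
Ldha (chr7:46845639-46845794, plus strand): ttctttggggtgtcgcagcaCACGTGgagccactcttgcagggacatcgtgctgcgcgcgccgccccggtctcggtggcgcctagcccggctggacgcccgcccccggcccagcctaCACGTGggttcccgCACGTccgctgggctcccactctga

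The match of Bnip3 lay 103 to 108 bases before its start, those of Slc16a3 10 to 27, that of Egln1 64 to 68 and those of Ldha 30 to 145. Bnip3 and Ldha held the palindrome CACGTG, and Slc16a3 and Egln1 the 5 letters alone. Hk2 held 2 matches, 48 to 226 bases before its start, and P4ha1 and 1500009C09Rik, which were lower in OIR without passing the test, held matches as well. The promoter windows of Hmgb2 and Mmd and another window of Ldha held no match, and no promoter of Cox4i2 was used. A match describes the letters and not binding.

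Among genes of the synapse no gene was called. Of 30 genes of the ribbon synapse and transmitter release, 25 were tested, 23 of them below 0 and 2 above, with 4 lower at an unadjusted p under 0.05 (3.26% over all genes) and a median log2 fold change of -0.20. That median was -0.05 without control 1 and 0.04 with replicates 2 and 3 alone. Snap25, a core protein of vesicle fusion, stood at 613, 544 and 631 CPM in OIR and 829.6, 798 and 758 in controls, without overlap (-0.44, edgeR adjusted p = 0.552). The vesicle GTPase Rab3a stood at 543, 444 and 622 against 646, 688 and 933 CPM (-0.50, adjusted p = 0.552). The calcium channel subunit Cacna2d3 stood at 127, 77.0 and 88.9 against 200.5, 165 and 126 CPM (-0.75, adjusted p = 0.481), and here OIR 1 overlapped with control 3.

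Among receptors, 5 of 17 kainate and AMPA genes were tested besides Grik1 of the selection, 3 above 0 and 2 below, and none passed an unadjusted p of 0.05. The AMPA subunit Gria1 stood at 76.0, 90.6 and 88.9 CPM in OIR and 99.9, 151 and 96.3 in controls (-0.43, edgeR adjusted p = 0.827). Of 16 receptors for GABA and glycine, the inhibitory transmitters of amacrine cells, 8 were tested, 6 below 0 and 2 above. Gabrr2, a rho subunit of slow GABA receptors, stood at 102, 95.1 and 35.5 against 143, 151 and 181 CPM (-0.91, adjusted p = 0.434). Of 23 potassium, sodium and HCN channels, 8 were tested, and Kcnma1, a calcium-gated potassium channel, stood at 550.4, 652 and 706 CPM in OIR and 881, 832 and 770.3 in controls (-0.42, adjusted p = 0.611).

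Among adhesion and transcription factor genes no gene was called, and with the block Bhlhe23 and Isl1 were. Of 44 adhesion genes and synapse organisers, 21 were tested besides genes of the selection, 18 above 0 and 3 below (median 0.20), with 5 higher and 0 lower at an unadjusted p under 0.05 (3.49 and 3.26% over all genes). With the genes of the selection included the median was 0.15, and it ran from -0.06 to 0.27 over 21 alternative settings. The semaphorin co-receptor Plxna4 stood at 85.8, 68.0 and 129 CPM in OIR and 48.9, 48.1 and 54.2 in controls (0.86, edgeR adjusted p = 0.434), and the neural adhesion molecule Ncam1 at 531, 743 and 791 against 451, 433 and 536 (0.51, adjusted p = 0.499), with OIR 1 inside the control range. Of 31 bipolar transcription factors, 18 were tested besides Fezf2 of the selection, 12 above 0 and 6 below. Bhlhe23, a helix-loop-helix factor of bipolar cells, stood at 55.2, 140.4 and 111 against 21.7, 61.9 and 24.1 CPM (1.71, adjusted p = 0.224, and 1.43, adjusted p = 0.0232, with the block). The ON factor Isl1 stood at 126, 299 and 418 CPM in OIR and 78.8, 165 and 162 in controls (1.13, adjusted p = 0.783, and 0.91, adjusted p = 0.0485, with the block). It was detected in 93.8 and 96.9% of sub-clusters 5 and 6 and in at most 10.2% of every other sub-cluster, and these sub-clusters gave 4, 2 and 0 and 5, 4 and 3 members in the OIR libraries and 7, 0 and 3 and 14, 4 and 2 in the controls. Gng13, a G protein gamma subunit of ON bipolar cells, went the other way, at 246, 544 and 351 CPM in OIR and 488, 894 and 752 in controls, with OIR 2 above control 1 (-0.92, edgeR adjusted p = 0.436, and -0.95, adjusted p = 0.00298, with the block). Of 9 ON genes 8 were tested, 5 above 0 and 3 below.

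Among the listed genes of respiration and translation no gene was called, and the called Cox4i2 is on none of these lists. Of 81 nuclear genes of oxidative phosphorylation, 74 were tested, 61 below 0 and 13 above (median -0.19), 5 lower and 1 higher at an unadjusted p under 0.05 (3.26 and 3.49% over all genes). With 1 library left out this median ran from -0.26 to -0.12. Ndufa5, a complex I subunit, stood at 302, 289.9 and 324 CPM in OIR and 341, 509 and 512 in controls (-0.55, edgeR adjusted p = 0.494). All 12 tested mitochondrially encoded genes were below 0 (median -0.20), none with an unadjusted p under 0.05. That median turned to 0.35 without control 1 and was -0.77 without OIR 1, and the sum of all 13 genes ran with the library number, at 74004, 38066 and 29579.5 CPM in OIR and 90250.1, 42826 and 28941 in controls. Of 83 ribosomal protein genes, 80 were tested, 73 above 0 and 7 below (median 0.20), 7 higher at an unadjusted p under 0.05 (3.49% over all genes) and 19 higher without overlap (6.73% over all genes). Rpl10 stood at 644, 571 and 866 against 521, 392 and 367 CPM (0.64, adjusted p = 0.423).

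Stress lists gave no call. Of 27 immediate early genes 10 were tested, 9 above 0 (median 0.13). The median was -0.77 without OIR 1, 1.03 without control 1, -0.04 without control 2 and -0.01 without control 3, and the sums were highest in the first library of each group (5987, 2097 and 1764 CPM in OIR, 4341, 2083 and 1757 in controls). Of 26 heat shock and cold-inducible genes 15 were tested, 8 above 0 and 7 below. Rbm3, an RNA-binding protein induced by cold, stood at 474, 579.8 and 546 against 438, 206 and 235 CPM (0.72, edgeR adjusted p = 0.5001). H2-K1, a class I MHC gene, was the only 1 of 30 interferon and MHC genes tested. It stood at 71.1, 54.4 and 62.2 CPM in OIR and 29.98, 20.6 and 24.1 in controls, without overlap (1.18, adjusted p = 0.263).

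RNA of other cells was present in the members and differed between libraries. All 14 rod genes were tested, 13 below 0 and 1 above (median -0.36), and the median turned to 0.15 without control 1. Their sum was 7208, 3728 and 9183 CPM in OIR and 12178, 7116 and 6897 in controls, highest in control 1, with Gngt1 the most abundant (1454, 992 and 1830.4 against 2357, 2276 and 2040.1 CPM) and none at 0. Of 10 Mueller glia genes 8 were tested, 7 above 0 (median 0.68), and the sum was 2639, 4036 and 1115 against 2458, 694 and 1101 CPM, with Apoe the most abundant. The glutamate transporter Slc1a3 stood at 125, 267 and 88.9 against 41.6, 13.8 and 48.1 CPM (1.96, edgeR adjusted p = 0.187, and 1.84, adjusted p = 0.0232, with the replicate block). Cone genes summed to 1489, 584 and 1453 against 1431, 1018 and 1005 CPM, with Gngt2 the most abundant and Arr3 at 0 by selection. The part of this RNA in the results was not tested.

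No microglial, endothelial, astrocyte, ganglion or horizontal cell gene passed the filter. Microglial genes summed to 36.8, 27.2 and 8.89 CPM in OIR and 247, 0 and 6.02 in controls, so that control 1 held nearly all. Astrocyte genes summed to 14.7, 1305 and 8.89 CPM in OIR and 8.88, 0 and 0 in controls. In OIR 2 Gfap (702 CPM), S100b (390 CPM), Pdgfra (145 CPM) and Pax2 (58.9 CPM) were each detected in 1 of the 28 members. Ganglion cell genes reached at most 24.99 CPM and horizontal cell genes at most 22.2 CPM. Of 7 amacrine genes Pax6 alone was tested, at 72.3, 95.1 and 53.3 against 51.6, 27.5 and 48.1 CPM (0.60, edgeR adjusted p = 0.767).

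The OIR effect was compared with that of the other bipolar groups in 1 model with the library as a block. Against Slit2-rule barcodes, 18 of 5122 genes were called (0.351%), and against Prkca-rule barcodes 20 of 10206 (0.196%). The 18 include Zfhx4 and Slitrk6, genes of the selection that carry no test and are not read as results. The first count was 61 without OIR 1, 29 without OIR 2 and 3 without control 1, and the second 37 without OIR 1 and 11 without control 2. Both comparisons use the same member sums. Bnip3 was not among them. It stood at 455, 507 and 351 CPM in OIR and 154, 159.5 and 237 in controls in Slit2-rule barcodes, and at 501, 495 and 496 against 153, 224 and 241 in Prkca-rule barcodes. The difference in log2 fold change, members minus the other group, was -0.09 (SE 0.20, adjusted p = 0.995 in edgeR) and -0.15 (SE 0.18, adjusted p = 1). Hmgb2 (-0.56, adjusted p = 0.788, and 0.09, adjusted p = 1) and Cox4i2 (0.13, adjusted p = 0.999, and -1.03, adjusted p = 0.223) were not called either.

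Ldha, the lactate dehydrogenase subunit that turns pyruvate to lactate, differed from both groups. In members it stood at 1366, 1287 and 906 CPM in OIR and 832, 990.0 and 1282 in controls, which overlapped (0.20, edgeR adjusted p = 0.910). In Slit2-rule barcodes it rose, with 1176, 1262 and 1255 against 549.6, 548 and 908 CPM (0.89, adjusted p = 0.0356), and in Prkca-rule barcodes too, with 1115, 951 and 1029 against 483, 566 and 655 (0.83, adjusted p = 0.00732). The difference was -0.70 (SE 0.16, adjusted p = 0.0465) and -0.65 (SE 0.14, adjusted p = 0.0311). Leaving out 1 library kept the sign, from -0.87 to -0.51 and from -0.78 to -0.49, but the call against both groups was lost without OIR 3 (edgeR adjusted p = 0.308 and 0.227), control 1 (0.260 and 0.0788), control 2 (0.164 and 0.0588) or control 3 (0.0668 and 0.177). Over all 10 alternative settings the call was lost in 7 against Slit2-rule and 6 against Prkca-rule barcodes (edgeR adjusted p up to 0.945 and 0.802).

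The glycolytic enzyme gene Gpi1 differed from Prkca-rule barcodes, with 1380.3, 919.6 and 906 CPM against 1013, 1128 and 1222 in members and 1263, 1023 and 1107 against 723, 765 and 785 in Prkca-rule barcodes (difference -0.64, SE 0.13, edgeR adjusted p = 0.0200). The Gpi1 call was lost without OIR 3, control 2 or control 3, with adjusted p values of 0.112, 0.0565 and 0.0945. Fgf11, an intracellular fibroblast growth factor homologue, stood at 65.0, 72.5 and 71.1 against 37.2, 96.3 and 66.2 CPM in members. In Prkca-rule barcodes it stood at 43.8, 63.2 and 55.9 against 5.72, 8.68 and 6.81, and rose there (2.96, adjusted p = 1.16e-05). The difference was -2.56 (SE 0.35, adjusted p = 0.000157), and it was called with each library left out in turn (-2.95 to -2.42). Fgf11 in control members spanned its OIR values in Prkca-rule barcodes. Hk2 (-1.24 and -0.83, adjusted p = 0.243 and 0.724) and Ndrg1 (-1.29 and -0.99, adjusted p = 0.290 and 0.0949) did not pass this test.

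**Figure D5:**
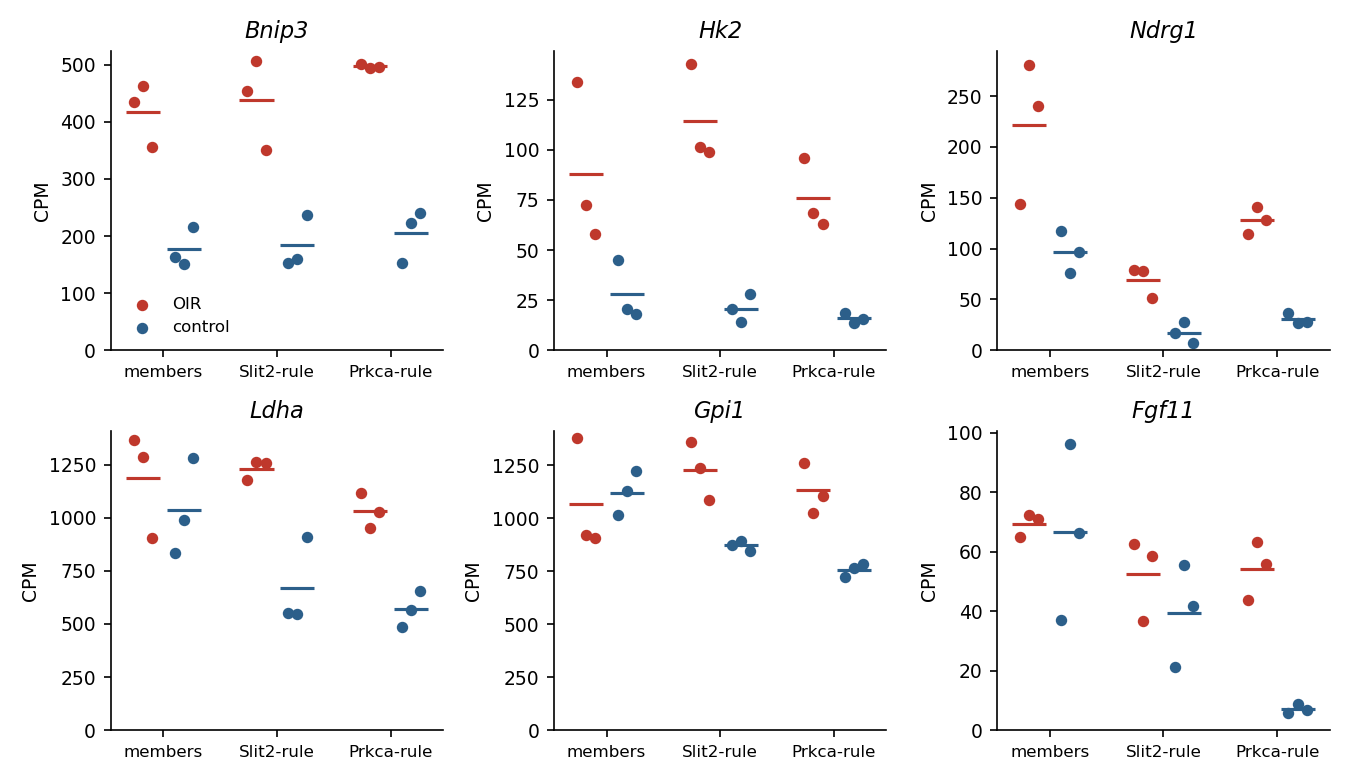
CPM of Bnip3, Hk2, Ndrg1, Ldha, Gpi1 and Fgf11 in each OIR and control library, for summed members, Slit2-rule and Prkca-rule barcodes, with group means as lines. Bnip3 separated OIR from control in all 3 groups of cells, while Ldha did so in Slit2-rule and Prkca-rule barcodes and its member values overlapped (906 to 1366 against 832 to 1282 CPM).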

How the data were processed

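The authors deposited filtered matrices of raw UMI counts, for 47631 barcodes and 31053 genes. The submitters' processing notes name mm10, the study's methods a GRCh38 reference with Cell Ranger 3.0.2, and the matrix headers version 3.1.0. Barcodes with 500 to 5000 detected genes and at most 20% mitochondrial counts were kept. The automatic threshold of Scrublet called 181 barcodes in OIR 1 (3 of its members) and 473 in control 1 (36 of its 336 members, 10.7%), but none in the other 4 libraries, so doublets were removed only in an alternative, by score.

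Raw counts of the members were summed per library and tested with edgeR 4.0.16 (TMM, filterByExpr, robust quasi-likelihood, Benjamini-Hochberg over all genes tested) in R 4.3.3, and CPM were computed from the summed member UMIs. Differences between classes were tested as the interaction of class and group with the library as a block. DESeq2 1.42.0 was an alternative. Members were clustered with scanpy 1.11.5 (2000 variable genes, 15 components, 20 neighbours, Leiden resolution 0.5). Shares were compared by exact permutation tests in SciPy 1.17.1. The scripts were tested on simulated data.

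The text names the 10 called genes of lowest p in each direction whose ranges do not overlap, or, where fewer than 5 were called, up to 5 by p. It also names the genes of the selection, called list members, up to 4 examples per list, and for the interactions the 5 called genes of lowest p in each direction and class. Other genes were added after their values were seen (Hmgb2, Hk2, Ndrg1 and Fgf11 across classes, Vegfa, Isl1 and Gng13). The members and lists were chosen with earlier results of these data known. Gene positions are from GENCODE vM21 (GRCm38). Alternatives covered the filter, count model, block, sex, thresholds of the selection, doublets, thinning, and libraries left out. Some named genes are not reported here.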

Additional observations from a re-analysis of the deposited data

Results flagged for a closer look

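Besides 2 genes of the selection, the OIR effect differed between the members and another bipolar class in 36 gene comparisons by the test of the difference itself (edgeR, library as a block). The 24 chosen by the naming rule are given here, as the log2 fold change in the members minus that in the other class. The other 12 are 6 genes higher in the members against Slit2-rule barcodes (0.82 to 3.77) and 6 lower against Prkca-rule barcodes (-4.50 to -0.88). Against Slit2-rule barcodes it was higher in the members for Spc25 (6.54), C1ql1 (4.27), Ptn (2.40), Ccdc136 (2.26), Dkk3 (1.87) and Glul (1.36). It was lower for Ppm1j (-1.61), Tulp1 (-1.05), Guk1 (-0.71) and Ldha (-0.70). The value for Spc25 is a fitted one and no bound, since all OIR sums of Slit2-rule barcodes held 0 UMIs and its 53 UMIs there all came from control 1. Without control 1 it was 1.72 (adjusted p = 1). C1ql1 rested on 16, 2 and 0 UMIs in OIR members and 4, 0 and 0 in control members, and on 60, 0 and 0 and 167, 1 and 39 in Slit2-rule barcodes. Its values without OIR 1 (9.81), where all OIR sums of Slit2-rule barcodes are at 0, and without control 1 (7.02, edgeR adjusted p = 0.260), where the control members are at 0, are likewise fitted and no bounds. Without control 1, of these 10 genes Ptn alone passed, and Ccdc136 stood at 1.57 (adjusted p = 0.513), Glul at 0.77 (adjusted p = 0.688), Dkk3 at 2.39 (adjusted p = 0.385), Ppm1j at -1.57 (adjusted p = 0.513), Tulp1 at -0.94 (adjusted p = 0.260) and Guk1 at -0.65 (adjusted p = 0.289). The calls of Spc25, Dkk3, Ppm1j, Guk1 and Ldha were lost without at least 1 other library too, and Ptn passed without each library (2.08 to 3.21). Dkk3 and Glul are Mueller glia genes, and that list had a median difference of 1.57 over 8 genes tested.

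Against Prkca-rule barcodes the effect was higher in the members for Tmeff1 (4.07), Pcp4l1 (3.54), Nr4a1 (2.85), C130073E24Rik (1.26) and Bzw2 (0.90). It was lower for C1qa (-4.15), C1qb (-3.13), Fgf11 (-2.56), Pygl (-2.53), Mmd (-1.60), Stmn1 (-1.03), Cabp5 (-0.65), Ldha (-0.65) and Gpi1 (-0.64). C1qa and C1qb are microglial genes, and in the members nearly all of their UMIs came from control 1. C1qa stood at -2.80 without OIR 1 (edgeR adjusted p = 0.997) and could not be given without control 1. Without OIR 1, C1qb stood at -0.84 (adjusted p = 1) and Mmd at -2.64 (adjusted p = 0.00206). Without control 1, the calls of Mmd (-1.26, edgeR adjusted p = 0.528), Pygl (-2.18, adjusted p = 0.373), Tmeff1 (3.85, adjusted p = 0.253), Cabp5 (-0.56, adjusted p = 0.192), C130073E24Rik (1.52, adjusted p = 0.173), Bzw2 (1.01, adjusted p = 0.0788), Ldha (-0.68, adjusted p = 0.0788) and Nr4a1 (3.73, adjusted p = 0.0713) were lost. Calls were lost without at least 1 other library for each of these but Pygl, and for Gpi1 without OIR 3 (-0.56, adjusted p = 0.112), control 2 or control 3. Fgf11 (-2.95 to -2.42), Stmn1 (-1.25 to -0.89) and Pcp4l1 (3.25 to 4.04) passed without each library in turn.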

How the results depend on the processing

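The count of genes called higher in OIR was 3 and that called lower 0. They became 5 and 1 with DESeq2, 35 and 19 without a filter on low counts, and 6 and 1 with at least 4 of the 6 genes. They became 20 and 2 without the highest doublet scores, 5 and 7 with replicates 2 and 3 alone, and 0 and 0 after thinning to 1000 UMIs, where 426 genes were tested. The fit with a term for sex sets OIR against control 1 alone, so its counts are not given. Leaving out 1 library gave 0 to 6 higher and 0 to 5 lower. Added after seeing the data, sub-clusters 1, 2 and 4 gave 5 higher, sub-clusters 1 and 2 gave 5 higher, and sub-clusters 1, 2 and 4 without control 1 gave 19 higher and 10 lower. With the replicate number as a block, the counts were 21 and 15 over all members and 17 and 12 over sub-clusters 1, 2 and 4. In that block Bnip3 stood at 1.25, Hmgb2 at 1.61 and Cox4i2 at 1.88. Same-numbered libraries deviated together with r of 0.27, -0.04 and 0.04 across 4265 genes of the member sums, and 0.67, 0.30 and 0.51 across 15167 genes of all kept barcodes (genes are no independent replicates). In the latter 5 of 6 libraries correlated best with their own number (control 2 with OIR 3). The labels give no shared litter or day, and the 2 kinds of sums differ on whether the numbers pair the samples, so the value with the block is given beside each named gene whose call it changes. The share of kept barcodes ran from -1.47 to 0.603 percentage points with a library left out, the latter without control 1. Genes differing from Slit2-rule barcodes (18) became 69 without a filter, 0 after thinning, 4 in sub-clusters 1, 2 and 4, and 3 to 61 with a library left out. Those differing from Prkca-rule barcodes (20) became 58, 3, 45 and 11 to 37, and 64 with at least 4 of the 6 genes. Single differences reversed for Glul against Slit2-rule barcodes (-0.30 with at least 4 of the 6 genes) and, against Prkca-rule barcodes, for C130073E24Rik (-0.26 after thinning), Nr4a1 (-0.60 to 3.73 with a library left out, the lowest without OIR 1) and C1qb (-3.21 to 2.74, the highest without control 1). The cause of these changes was not tested, except that thinning leaves fewer genes and leaving out libraries fewer samples. Depth limits controls 2 and 3, whose members held 145450 and 166167 UMIs.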
